A study of Mus musculus with 2 samples.

Results

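The PPAR and fatty acid oxidation genes are 35 genes chosen by name: the peroxisome proliferator-activated receptors (PPARs) and their coactivator, the enzymes that carry fatty acids into mitochondria and peroxisomes and break them down, and genes of lipid handling known as PPAR targets. Probes were assigned to them through the RefSeq accession printed in the array files, and a gene's value was that of its brightest probe. Of the 35 genes, 34 had a probe on the array, out of 16535 genes with a symbol there, and 33 were measured, that is well above background for both RNAs on each array, out of 13313 such genes. Fabp5, the epidermal fatty acid binding protein, matched no probe. Ppard, the PPAR delta receptor gene, had 1 probe, which was not well above background for either RNA on either array, so no ratio is given for it.

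PPARs are nuclear receptors that bind fatty acids and their derivatives. They act as heterodimers with retinoid X receptors on DNA elements made of a pair of AGGTCA-like half-sites, and in liver, heart and muscle they drive the genes of fatty acid oxidation. In the oxidation pathway a fatty acid is activated to its acyl-CoA, passed into the mitochondrion as an acylcarnitine, and shortened in rounds of dehydrogenation, hydration, a second dehydrogenation and thiolysis, with the electrons leaving through the electron transfer flavoprotein. In brain the pathway is known mainly from astrocytes, while neurons rely largely on glucose and lactate.

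The RNA came from the hippocampus of male C57BL/6J mice, 11 weeks old and weighing 26 to 28 g, housed singly. After 1 week on plain powdered chow, the ASX group received for 4 weeks chow holding 0.5% by weight of a powder with 2% astaxanthin, a red carotenoid of the alga Haematococcus pluvialis, and the control group received chow with 0% of it and placebo powder. ASX and control RNA were hybridised together on each of 2 two-colour arrays. Cy5 labelled the ASX RNA on array 1 and the control RNA on array 2, with Cy3 on the other RNA each time. The titles give 4 mice for each array, but how their RNA was combined is not given in the labels, so the arrays were counted as a technical dye swap of 1 replicate. Every ratio below is log2 of ASX over control, turned the same way on both arrays. A difference between the RNA samples keeps its sign between the turned arrays, while a difference that follows the dye changes its sign. With 1 replicate no test of the diet could be made, and an SD between arrays is technical.

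Between 75.8% and 78.2% of the 43379 spots for mouse transcripts were well above background for each RNA on each array. Markers of the labelled tissue were measured: 6 of 8 for dentate granule cells and 6 of 6 for CA1 pyramidal cells. All 9 markers of striatal projection neurons and 7 of 8 of thalamus and habenula were measured as well. The tissue was a mixture of cells, in which fewer cells of a type and less RNA per cell cannot be told apart.

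Promoter windows of 300 bases, from 250 bases before to 50 after the annotated start, were matched by symbol in RefSeq (GRCm38.p6) for 29 of the 35 genes, with 34 windows. The PPAR half-site AGGTCA, searched on both strands, occurred in 8 of these windows, belonging to 7 genes (Acadm, Plin2, Pparg, Echs1, Acsl6, Acadvl and Cpt1a), and in 16.3% of all 32851 promoter windows. A full element, 2 copies of AGGTCA in the same direction spaced by 1 base, was in none of the 34 windows and in 0.0396% of all windows. The looser form, 2 copies of AGGNCA spaced by 1 base, whose matches include those of the strict form, was also in none of them and in 0.381% of all. These are matches of letters in a short window and say nothing of binding. The windows of Plin2, the member with the largest difference between the RNAs, and of Cpt1a, the entry step of mitochondrial oxidation, are printed 5′ to 3′ on the strand of the gene, with the half-site in capitals. The Plin2 window lies at chr4:86670010-86670309 on the minus strand, and the Cpt1a window at chr19:3323051-3323350 on the plus strand.
Plin2: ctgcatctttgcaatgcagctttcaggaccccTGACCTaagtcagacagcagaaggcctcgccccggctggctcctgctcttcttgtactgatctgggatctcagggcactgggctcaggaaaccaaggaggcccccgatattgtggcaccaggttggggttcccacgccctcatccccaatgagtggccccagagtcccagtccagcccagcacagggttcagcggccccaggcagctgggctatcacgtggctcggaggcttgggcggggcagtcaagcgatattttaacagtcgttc
Cpt1a: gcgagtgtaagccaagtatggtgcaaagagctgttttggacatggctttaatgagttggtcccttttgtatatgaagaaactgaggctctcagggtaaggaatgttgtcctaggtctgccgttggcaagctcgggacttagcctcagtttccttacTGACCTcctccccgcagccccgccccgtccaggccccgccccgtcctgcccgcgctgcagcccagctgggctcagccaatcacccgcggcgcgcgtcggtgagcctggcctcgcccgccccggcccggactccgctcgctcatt

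Hadha and Hadhb encode the alpha and beta subunits of the mitochondrial trifunctional protein and lie head to head, with starts 273 bases apart. The Hadhb window, at chr5:30155003-30155302 on the plus strand, is printed because these neighbours, whose ratios are compared further on, share a stretch of promoter. Capitals mark the 228 bases that also fall in the Hadha window, which reads the other strand.
Hadhb: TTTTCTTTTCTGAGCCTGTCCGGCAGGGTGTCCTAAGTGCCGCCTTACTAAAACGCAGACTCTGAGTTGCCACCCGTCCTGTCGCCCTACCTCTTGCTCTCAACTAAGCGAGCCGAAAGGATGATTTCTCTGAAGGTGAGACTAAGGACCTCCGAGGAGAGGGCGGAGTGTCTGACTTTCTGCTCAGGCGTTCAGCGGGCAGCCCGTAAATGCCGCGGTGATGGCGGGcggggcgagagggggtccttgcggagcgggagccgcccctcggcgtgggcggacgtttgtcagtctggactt

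The 33 measured genes stood close to equal levels in the 2 RNAs. No member was at least 1.5-fold higher on each array (0.0300% of all 13313 genes were) and none was at least 1.5-fold lower on each array (0.0300% of all). With the smaller step of 1.2-fold on each array, again no member was higher (0.233% of all genes) or lower (0.331% of all). In the mean of the arrays all 33 lay within 1.2-fold, as did 98.6% of all genes. The means ran from -0.18 for Plin2 to 0.10 for Hadh, with 19 above 0 and 14 below. The median of the means was 0.0069 over members and -0.019 over all genes. On the single arrays the members' medians were -0.020 and -0.012, so the median of the means and the medians on each array differ in sign. The median size of a mean, sign aside, was 0.042 for members and 0.056 for all genes.

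**Figure D1:**
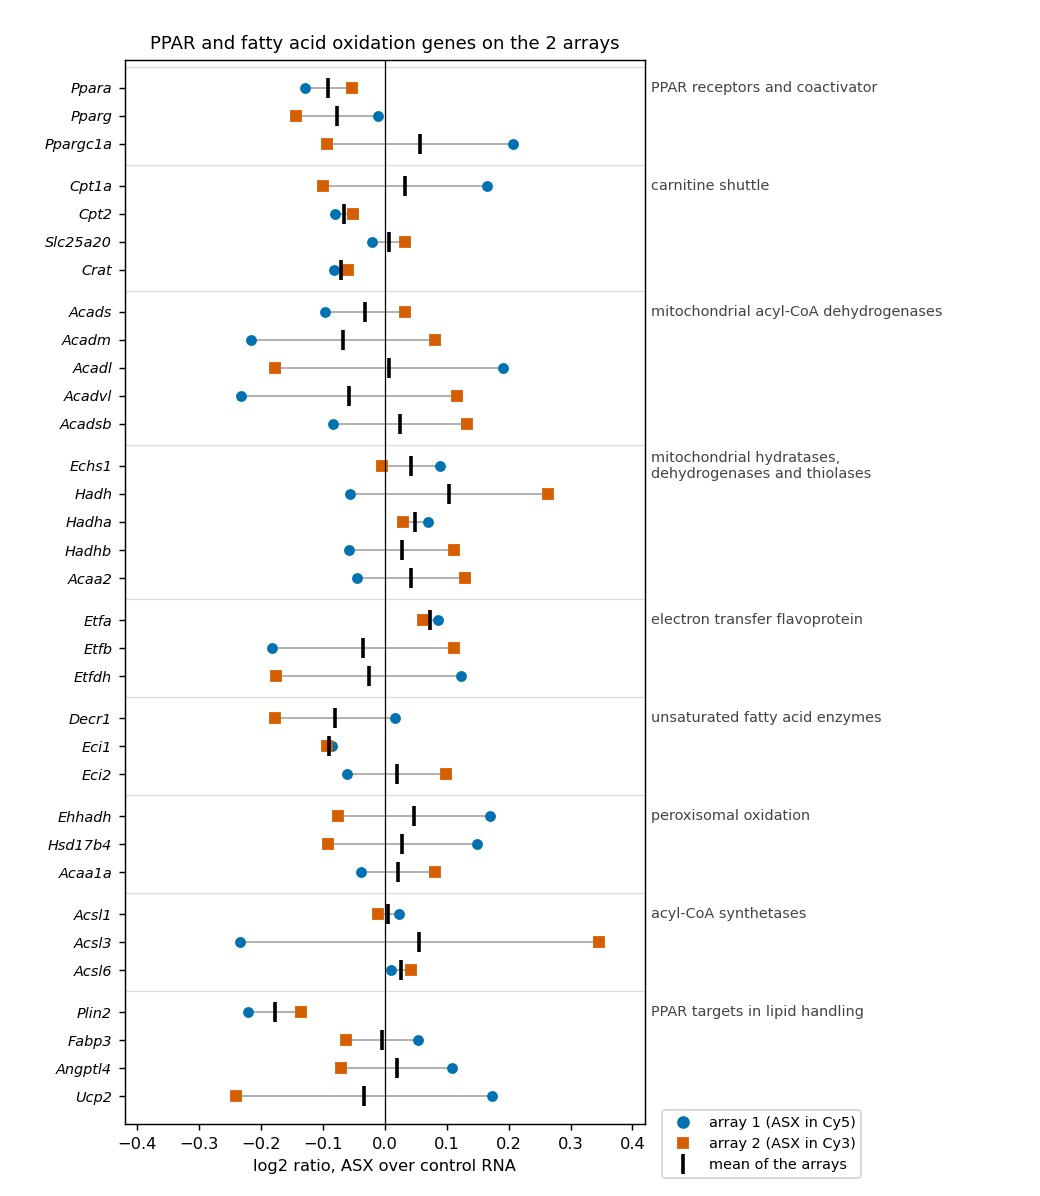
Log2 ratio of ASX over control RNA (x axis) for each of the 33 measured genes (rows, grouped by role): circles are array 1, squares array 2 and black bars the mean of both. Most pairs of points fall on opposite sides of 0, and Plin2 is the lowest mean at -0.18.

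Most members changed sign between the turned arrays. There were 12 members above 0 on array 1 and below 0 on array 2 (36.4% of 33, against 28.7% of all genes) and 12 the other way round (36.4%, against 30.6% of all). Only 3 members, Hadha, Etfa and Acsl6, were above 0 on both arrays (9.09%, against 14.3%), and 6 members, Ppara, Pparg, Cpt2, Crat, Eci1 and Plin2, were below 0 on both (18.2%, against 26.4%). Over all genes 59.3% changed sign, and these shares also stand beside the counts by role given below. No member was above 0 on both arrays with median centring, where 8.89% of all genes were, or with spike-in scaling, where 0.323% were. The dye part of a ratio, the difference of array 1 minus array 2 divided by 2, had a median size of 0.085 in members and 0.078 in all genes, beside 0.042 and 0.056 for the mean of both arrays, which holds any difference between the 2 RNA samples. Each dye orientation had 1 array, so the dye part also holds error between the arrays. No member was at least 1.2-fold apart in the dye direction on each array, as 1.44% of all genes were. Between array 1 and array 2, Pearson's r over the 33 members was -0.57 and Spearman's rho -0.57, beside -0.25 and -0.27 over all genes. These are descriptions across genes that share both arrays and their dye chemistry.

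**Figure D2:**
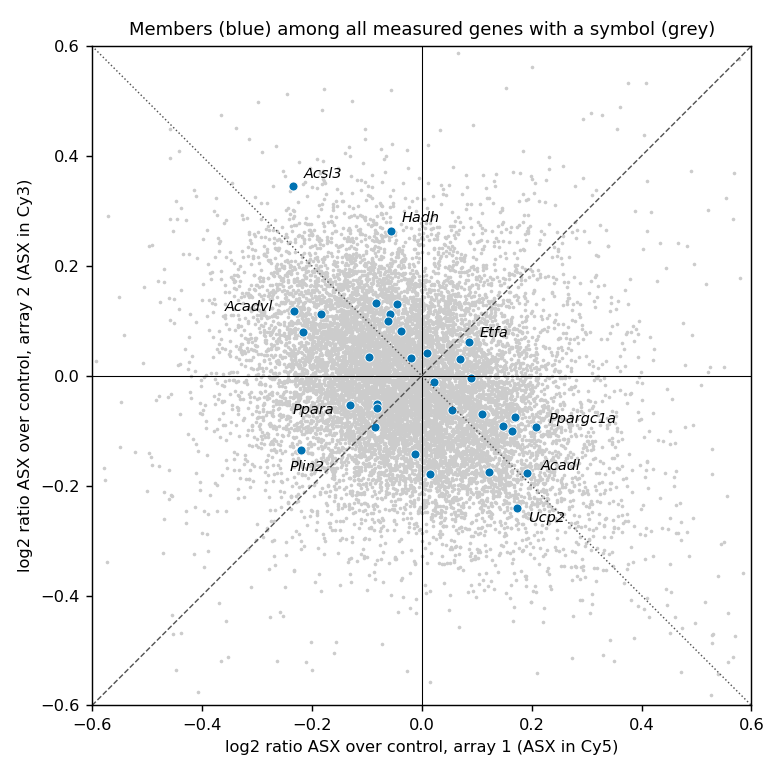
Log2 ratio of ASX over control on array 1 (x axis) against array 2 (y axis), with the 33 members in blue over all 13313 measured genes in grey; 73 genes lie outside the axes. A difference between the RNA samples would lie along the dashed line and a dye difference along the dotted line, and 24 members lie in the upper left and lower right quadrants.

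Among the receptors and the coactivator, Ppara and Pparg were below 0 on both arrays. Ppara encodes PPAR alpha, the receptor tied most closely to fatty acid oxidation; its processed intensity was 286.8 in ASX and 320.4 in control RNA on array 1, and 229.5 and 241.8 on array 2. Its log2 ratios were -0.13 and -0.053, a mean of -0.091 with an SD of 0.054. The lower RNA was that of the ASX group on both arrays, by less than 1.2-fold. Pparg encodes PPAR gamma, the receptor of fat cell differentiation, and had ratios of -0.012 and -0.14, a mean of -0.077 (SD 0.093). Ppargc1a encodes PGC-1 alpha, a coactivator that raises mitochondrial genes. Its intensities were 3826 in ASX and 3233 in control RNA on array 1 and 2485 and 2584 on array 2, so the RNA labelled with Cy5 was the higher one each time. Its ratios were 0.21 and -0.093, a mean of 0.057 (SD 0.21).

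In the carnitine shuttle, 2 of the 4 genes were below 0 on both arrays and 2 changed sign. Cpt2, the inner-membrane transferase that returns the acyl group to CoA, had ratios of -0.081 and -0.052, a mean of -0.066 (SD 0.021). Crat, the transferase of short chains, had -0.082 and -0.059, a mean of -0.071 (SD 0.016). Both were slightly lower in the ASX RNA on both arrays. Cpt1a, the outer-membrane transferase that limits entry into the pathway, had intensities of 1825 in ASX and 1631 in control RNA on array 1 and of 1248 and 1348 on array 2. Its ratios of 0.16 and -0.10 cancelled to a mean of 0.032 (SD 0.19). Slc25a20, the carrier that exchanges acylcarnitine for carnitine, had -0.020 and 0.033, a mean of 0.0064 (SD 0.038), the ratio of a gene at nearly equal levels.

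All 5 mitochondrial acyl-CoA dehydrogenases, enzymes for chains of different length or branching, changed sign between the arrays, as 59.3% of all genes did. Acadvl (very long chains) had ratios of -0.23 and 0.12, a mean of -0.058 (SD 0.25). Acadl (long chains) had 0.19 and -0.18, a mean of 0.0069 (SD 0.26). Acadm (medium chains) had -0.22 and 0.080, a mean of -0.068 (SD 0.21). The very long and medium chain enzymes were brighter in Cy3 and the long chain enzyme brighter in Cy5, whichever RNA carried the dye. Acads (short chains) had -0.096 and 0.033, a mean of -0.031 (SD 0.091). Acadsb (short branched chains) had -0.083 and 0.13, a mean of 0.024 (SD 0.15). The median of the 5 means was -0.031.

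The enzymes of the later steps had means above 0 in all 5 genes, with a median of 0.043, and only Hadha kept its sign on both arrays. Hadh encodes the 3-hydroxyacyl-CoA dehydrogenase of medium and short chains. Its intensities were 1392 in ASX and 1537 in control RNA on array 1, and 1264 and 1041 on array 2. The ratios were -0.056 and 0.26, so the highest mean among the members, 0.10 (SD 0.23), came from array 2, with array 1 on the other side of 0. Hadha had 0.069 and 0.030, a mean of 0.049 (SD 0.028), and Hadhb had -0.058 and 0.11, a mean of 0.027 (SD 0.12). The means of these neighbours differed by less than the SD of Hadhb between arrays, and their ratios on array 1 had opposite signs. Echs1, the short-chain enoyl-CoA hydratase, had 0.090 and -0.0041, a mean of 0.043 (SD 0.066). Acaa2, the mitochondrial 3-ketoacyl-CoA thiolase, had -0.046 and 0.13, a mean of 0.042 (SD 0.12). The median of the 5 flipped to -0.17 with median centring, to -0.36 with spike-in scaling and to -0.046 on array 1 alone; relative to all genes it ran from -0.0089 to 0.067 over the settings with both arrays.

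The electron transfer flavoprotein hands electrons from the dehydrogenases to the respiratory chain. Etfa, its alpha subunit, had ratios of 0.086 and 0.061, a mean of 0.074 (SD 0.018), and Etfb, its beta subunit, had -0.18 and 0.11, a mean of -0.035 (SD 0.21). Etfdh, the dehydrogenase that passes the electrons to ubiquinone, had 0.12 and -0.18, a mean of -0.026 (SD 0.21). Of these genes only Etfa was on the same side on both arrays.

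Unsaturated fatty acids need auxiliary enzymes that move or remove double bonds. Eci1, a mitochondrial enoyl-CoA isomerase, had the closest pair of values of all members, -0.085 and -0.094, a mean of -0.090 (SD 0.0062). The closeness of this pair holds for the loess ratios. Its processed intensities were nearly equal on array 1, 5054 in ASX and 5075 in control RNA, and were 3801 and 4251 on array 2. Eci2, the isomerase found in peroxisomes and mitochondria, had -0.061 and 0.099, a mean of 0.019 (SD 0.11). Decr1, the 2,4-dienoyl-CoA reductase of mitochondria, had 0.016 and -0.18, a mean of -0.081 (SD 0.14). The paired isomerases thus differed in direction in the mean, and only Eci1 was lower in ASX RNA on both arrays.

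All 3 peroxisomal genes changed sign, as 59.3% of all genes did. Ehhadh, the bifunctional enzyme that is a classic PPAR alpha target in liver, had 0.17 and -0.075, a mean of 0.048 (SD 0.17). Hsd17b4, the bifunctional enzyme that also handles branched chains, had 0.15 and -0.092, a mean of 0.028 (SD 0.17). Acaa1a, the peroxisomal thiolase, had -0.038 and 0.082, a mean of 0.022 (SD 0.084); it has a close copy, Acaa1b, and sharing of signal between their probes was not tested. The means were small in each of the 3 genes against the differences between their arrays.

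The acyl-CoA synthetases trap fatty acids as acyl-CoA. Acsl3, which acts at the endoplasmic reticulum and lipid droplets, had the largest difference between arrays of all members: intensities were 3604 in ASX and 4047 in control RNA on array 1, and 3441 and 2804 on array 2. Its ratios were -0.23 and 0.35, a mean of 0.056 (SD 0.41), with the RNA in Cy3 higher on both arrays. Acsl1, the main synthetase of liver and fat, had 0.022 and -0.012, a mean of 0.0054 (SD 0.024). Acsl6, a synthetase abundant in brain, had 0.010 and 0.042, a mean of 0.026 (SD 0.022). The mean of Acsl6 turned to -0.0077 with the log ratios of the scanner software and to -0.0037 with the mean over probes, and it was -0.18 with median centring and -0.38 with spike-in scaling. Its processed intensity on array 1 was 4392 in ASX and 4498 in control RNA.

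Of the PPAR targets in lipid handling, Plin2 had the largest mean in size, as it did among all 33 measured members. It is named as the largest of 33 values, so its rank among all genes follows in part from that choice. Plin2 encodes perilipin 2, a coat protein of lipid droplets that is stabilised by stored lipid and is a PPAR target in many tissues. Its processed intensity was 919.3 in ASX and 1046 in control RNA on array 1, and 744.9 and 808.8 on array 2, so the ASX RNA was the lower one under both dye orientations. The log2 ratios were -0.22 and -0.13, a mean of -0.18 with an SD of 0.061, or a fold of 0.884. This mean was as large as or larger in size than that of 94.1% of all genes with a symbol, where the mean of Hadh reached 77.7%. On array 1 the fold was 0.858 and on array 2 it was 0.911, so 1.2-fold was reached on neither array. The mean rests on 1 probe with 1 spot per array, and the authors' deposited p-values of that spot were 0.364 and 0.561. Ucp2, a mitochondrial carrier of the uncoupling protein family, had ratios of 0.17 and -0.24, a mean of -0.034 (SD 0.29). Angptl4, a secreted inhibitor of lipoprotein lipase, had 0.11 and -0.070, a mean of 0.019 (SD 0.13). Fabp3, the fatty acid binding protein of heart and neurons, had 0.054 and -0.062, a mean of -0.0040 (SD 0.083). These other targets all changed sign between the arrays.

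Marker lists of several cell types are given beside these values. Over all genes 14.3% were above 0 on both arrays, 26.4% were below 0 on both and 59.3% changed sign. Markers of ependymal cells had a median of -0.16, with 5 of 5 measured genes below 0 on both arrays; Foxj1, their defining factor, was among the measured genes, while Tmem212, Ccdc153 and Spag17 were not measured. Their summed processed intensity was 4312 in ASX and 5033 in control RNA on array 1, and 3697 and 4172 on array 2. Markers of striatal projection neurons had a median of -0.24, with 8 of 9 below 0 on both arrays, and sums of 18557 and 22159 on array 1 and of 14151 and 18851 on array 2. Markers of thalamus and habenula had a median of -0.15, with 5 of 7 below 0 on both arrays, and sums of 4104 and 4884 on array 1 and of 3249 and 3770 on array 2. All of these lists had medians below 0. Among the members, 14 means were below 0, that of Plin2 included, and 19 were above 0. Markers of meningeal fibroblasts had a median of 0.19 (-0.16 with spike-in scaling, and 0.20 to 0.22 relative to all genes over the 10 settings), with 9 of 12 above 0 on both arrays, and sums of 28595 and 28138 on array 1 and of 23501 and 21311 on array 2. The microglial list had a median of -0.034, with 3 of 8 below 0 on both arrays, and sums of 24498 and 24347 on array 1 and of 19401 and 19907 on array 2. Astrocytes, the cells best known for fatty acid oxidation in brain, had a marker median of -0.025, and 10 of 12 markers changed sign between the arrays. Their sums were 145296 and 151991 on array 1 and 123331 and 122279 on array 2. Of the adipocyte markers Adipoq, Lep and Cfd were not measured. The 4 measured ones had sums of 103 and 105 on array 1 and of 95 and 101 on array 2. They were dim, with a median log2 brightness of 6.62, so these sums cannot compare fat cell content between the RNAs. The blood list held both directions. Its red cell genes Hba-a1 and Hbb-bt, for the globins, were at least 1.2-fold lower on each array (means of -0.46 and -0.53). Of its other red cell genes, Alas2 had ratios of -0.41 and -0.18, which did not reach 1.2-fold on each array. Slc4a1 had ratios of 0.24 and -0.18 and so changed sign. The neutrophil genes S100a8 and S100a9 were at least 1.2-fold higher on each array (means of 0.65 and 1.27). Hba-a1 and S100a8 were named after their values were seen. The blood sums were 7017 in ASX and 10727 in control RNA on array 1, and 6130 and 7667 on array 2. Markers of dentate granule cells had a median of 0.099, with 4 of 6 above 0 on both arrays. It was -0.036 with median centring and -0.23 with spike-in scaling, and 0.12 to 0.14 relative to all genes, and the sums were 14092 and 13537 on array 1 and 11462 and 10962 on array 2. Markers of choroid plexus had a median of -0.069, with 5 of 7 below 0 on both arrays, and sums of 17271 and 17244 on array 1 and of 15307 and 15221 on array 2. The oligodendrocyte list had a median of -0.051, with 7 of 8 genes changing sign. The medians were 0.056 for CA1 pyramidal cells and -0.028 for endothelial cells and pericytes. The part of these cell types in the members' ratios was not tested.

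Ppara, Pparg, Cpt1a and Acaa2 were read by probes printed 10 times on each array. The SD over the 10 spots on an array lay between 0.024 (Acaa2, array 1) and 0.065 (Ppara, array 2). For Cpt1a 0 of 10 spots were below 0 on array 1 and 10 of 10 on array 2. For Acaa2 10 of 10 were below 0 on array 1 and 0 of 10 on array 2. The sign change of both genes was therefore present in every spot of these probes. For Ppara 10 of 10 spots were below 0 on array 1 and 8 of 10 on array 2, and for Pparg 6 of 10 and 10 of 10. Over the spot positions the mean of both arrays was -0.091 ± 0.042 for Ppara, -0.077 ± 0.030 for Pparg, 0.032 ± 0.014 for Cpt1a and 0.042 ± 0.019 for Acaa2 (SD over 10 spots, which is spot error within 1 pair of RNA samples). Over all 193 measured probes of this kind the median of that SD was 0.033.

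**Figure D3:**
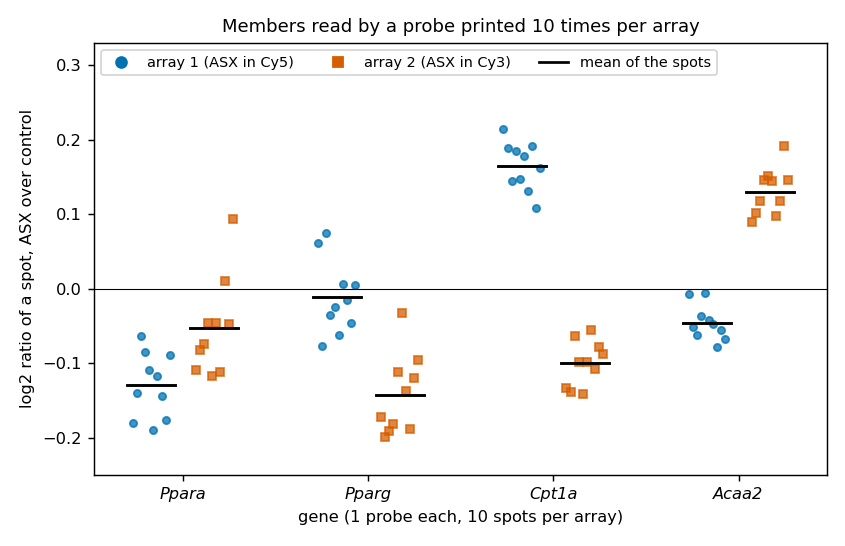
Log2 ratio of ASX over control (y axis) in each of the 10 spots per array of the probes for Ppara, Pparg, Cpt1a and Acaa2; circles are array 1, squares array 2 and black lines the mean of the spots. The spots of Cpt1a and Acaa2 lie on opposite sides of 0 on the 2 arrays, in all 10 spots each.

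Different probes of a gene were also compared. There were 7 members with more than 1 measured probe. The mean ratios of their probes had 1 sign for Decr1 (-0.081 and -0.034), Etfdh (-0.045 and -0.026) and Ucp2 (-0.10 and -0.034). They ran from below to above 0 for Acaa1a (-0.051 to 0.022, 3 probes), Acsl1 (-0.026 to 0.0054, 3 probes), Acsl6 (-0.034 to 0.026) and Cpt1a (-0.027 to 0.032). On the single arrays the Decr1 probes were opposed, 0.016 and -0.18 against -0.11 and 0.043. The dimmer Cpt1a probe had -0.057 and 0.003, against 0.16 and -0.10 for the brightest. The dimmer Acsl1 probes had 0.18 and -0.21, and 0.21 and -0.27, so they changed sign by more than the brightest. Over the 4548 genes with more than 1 measured probe, the brightest and the next probe had means of the same sign in 64.5%, with a median difference of 0.054. In 4 of these 7 members the sign of the mean thus differed between probes. The deposited p-value of single spots covers technical error only. Among members it was lowest at 0.236 on array 1 (Ppargc1a) and 0.152 on array 2 (Acsl3). Of the 69 spots of the members' probes on each array, 0 fell under 0.01. The share of all spots under 0.01 is not given here.

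The direction of members depended on the scaling of the arrays. Centring each array on its median without loess moved the median of all genes from -0.019 to -0.16, and scaling on the spike-in RNAs moved it to -0.36, so members were also compared with the median of all genes under each setting. Relative to that median, 7 members were above it under all 10 settings with both arrays: Ppargc1a, Cpt1a, Hadh, Hadha, Etfa, Ehhadh and Acsl3. Another 9 were below it under all of them: Ppara, Pparg, Cpt2, Crat, Acadm, Acadvl, Etfb, Eci1 and Plin2. The other 17 fell on both sides. The 10 settings overlap, so staying on 1 side under all of them was partly fixed in advance. The members' values were as reported with no brightness filter and with the filter on at least 1 RNA. The deposited value table gave the same values as the log ratios of the scanner software. Relative to all genes, spike-in scaling gave the same values as median centring. The share of all genes that stayed on 1 side is not given here. Plin2 ran from -0.17 to -0.13 relative to all genes and was the lowest member as reported. With median centring 1 member, Plin2, was at least 1.2-fold lower on each array, beside 3.6% of all genes; with spike-in scaling 16 members were, beside 31.8% of all genes.

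**Figure D4:**
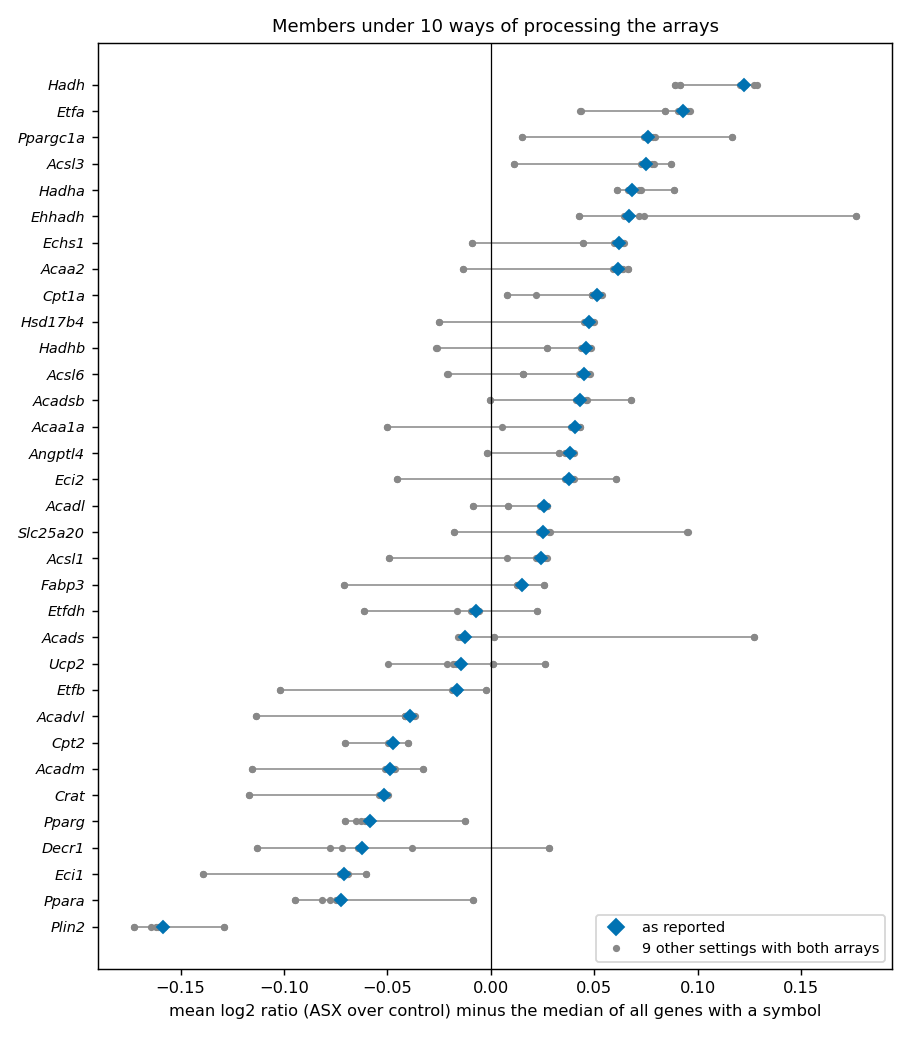
Mean log2 ratio of each of the 33 members minus the median of all genes with a symbol (x axis) under 10 ways of processing the arrays: diamonds are the values as reported and grey points the 9 other settings. Plin2 lies between -0.17 and -0.13 under all of them, while 17 members cross 0. Some of the settings give the members equal values.

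The wider pathway was described by 7 lists with 106 genes, of which 105 were on the array and 97 measured. None of the 97 was at least 1.2-fold higher on each array (0.233% of all genes) or lower (0.331% of all genes). There were 12 above 0 on both arrays (14.3% of all genes), 19 below 0 on both (26.4%) and 66 with opposite signs (59.3%). The median was -0.027, against -0.019 for all genes. The same shares stand beside the counts of the lists described below. The genes that follow are those with the largest mean in each list.

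Among 15 measured PPAR partners and cofactors the median was -0.040, with 5 below 0 on both arrays and 3 above. Rxrg, the retinoid X receptor gamma gene, had ratios of -0.36 and -0.17, a mean of -0.26 (SD 0.13). Rxra, the alpha form and a dimer partner of the PPARs, had -0.24 and -0.076, a mean of -0.16 (SD 0.12). Both partners were lower in ASX RNA on both arrays, neither by 1.2-fold on each; Rxrg is also a gene of the striatum, whose marker list was lower as well, and the part of that tissue in its ratio was not tested.

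Of the other 28 fatty acid oxidation enzymes, 23 changed sign between the arrays, 2 were above 0 on both and 3 below, with a median of -0.018; over all genes 59.3% changed sign, 14.3% were above 0 on both and 26.4% below. Pecr, a peroxisomal enoyl-CoA reductase, had -0.057 and 0.28, a mean of 0.11 (SD 0.24). Acad8, the isobutyryl-CoA dehydrogenase of valine breakdown, had -0.17 and -0.041, a mean of -0.11 (SD 0.093). All 6 genes of ketone body metabolism changed sign, with a median of -0.027. Slc16a1, a carrier of lactate and ketone bodies, had -0.37 and 0.18, a mean of -0.095 (SD 0.38). Acat1, the mitochondrial acetoacetyl-CoA thiolase, had -0.011 and 0.17, a mean of 0.078 (SD 0.12).

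Among 15 measured genes of fatty acid uptake, binding and activation 11 changed sign, and the median was -0.030. Fabp2, the intestinal fatty acid binding protein, had -0.15 and -0.20, a mean of -0.18 (SD 0.036), and Slc27a1, a fatty acid transport protein, had 0.46 and -0.20, a mean of 0.13 (SD 0.47). Of 14 lipid droplet and lipolysis genes, 6 were below 0 on both arrays and 3 above, with a median of -0.033. Cidec, a droplet protein of fat cells that is also on the adipocyte marker list, had -0.13 and -0.24, a mean of -0.18 (SD 0.075). Plin5, the perilipin of oxidative tissues, had -0.38 and 0.034, a mean of -0.17 (SD 0.29). Fabp2 and Cidec were dim, with a mean log2 brightness of 6.59 and 6.63, where the normexp offset draws ratios towards 0. Their means are therefore not set beside that of Plin2. Plin5 differed in sign between its arrays.

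Of 13 further known PPAR targets 8 were measured, with a median of -0.025; 2 were below 0 on both arrays and none above. Pdk4, the kinase that shuts off pyruvate dehydrogenase when fat is burned and a PPAR target in muscle and liver, had -0.13 and -0.21, a mean of -0.17 (SD 0.058). Txnip, a glucose-responsive arrestin-like protein, had -0.16 and 0.027, a mean of -0.069 (SD 0.14). Pdk4 was thus lower in ASX RNA on both arrays, but it was named as the largest in size of the 8 means. Plin2 was also named as a largest value, so a likeness of the 2 means follows in part from that choice. The 14 measured genes of fatty acid synthesis had a median of -0.0061, with 10 changing sign. Acaca, the cytosolic acetyl-CoA carboxylase, had 0.17 and 0.038, a mean of 0.10 (SD 0.093), and Elovl6, an elongase, had -0.31 and 0.12, a mean of -0.095 (SD 0.30).

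**Figure D5:**
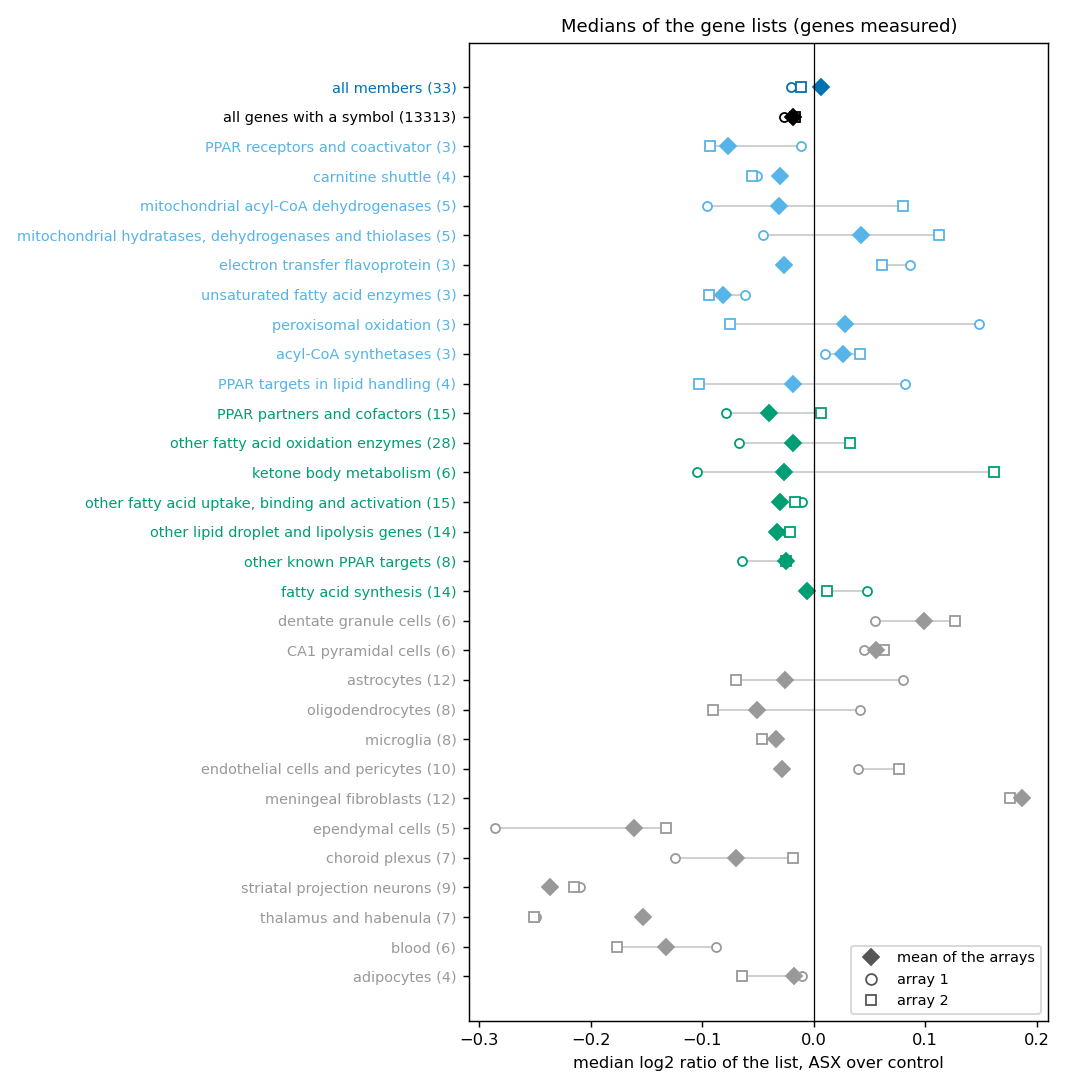
Median log2 ratio of ASX over control (x axis) for all members, all genes with a symbol, the members by role (light blue), the other pathway lists (green) and the cell type marker lists (grey), with the number of measured genes in brackets; diamonds are the mean of the arrays, circles array 1 and squares array 2. The medians of the members' roles run from -0.081 to 0.043, and those of striatal, ependymal and meningeal markers lie at -0.24, -0.16 and 0.19.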

How the data were processed

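Hippocampal RNA of ASX-fed and control mice was compared on 2 Agilent arrays forming 1 dye-swapped replicate. Per the submitters' processing notes and the file headers, image reading used Agilent Feature Extraction, version 11.0.1.1. The median spot intensity and local background, as deposited, were not normalized; the processed intensity was, per the file headers, corrected for background and for dye (linear, then lowess). The deposited log10 ratio was processed Cy5 over Cy3, and the deposited value table held the same ratio on the log10 scale, not turned for the dye swap. The deposited p-value of a spot was the scanner software's own, from its model of spot error.

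Ratios were computed with limma 3.58.1 in R 4.3.3 (normexp, offset 50, loess with control spots at weight 0) and turned to log2(ASX / control). Control spots (1639 of 45018 features) and 3 non-uniform spots were left out, and none was saturated. Accessions were named through RefSeq (GRCm38.p6): 23374 of 41174 probes matched 1 symbol and 17800 none. The brightest probe of a gene was used, out of the 30071 probes (73%) where each RNA was well above background on each array. Scripts were tested on simulated data. The number of arrays limits the precision. A mean signal was named in the design, and the median signal was used.

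All members were named, and from each pathway list the 2 measured genes with the largest mean in size. The members, lists and alternatives were chosen with earlier results of these data known. Alternatives covered background correction, scaling, filter, probe choice, source table and single arrays.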

Additional observations from a re-analysis of the deposited data

How the results depend on the processing

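The counts of members at least 1.5-fold apart were 0 in both directions under every alternative, single arrays included. The members' median (0.0069 as reported) moved by less than the 0.0063 technical SD with a normexp offset of 16, plain background subtraction, no brightness filter and a filter on at least 1 RNA. It was -0.0011 with log ratios of the scanner software and with the deposited value table, -0.0037 with the mean over probes, -0.17 with median centring, -0.37 with spike-in scaling, and -0.020 to -0.012 on single arrays (without replicate 2 and without replicate 1). Members above 0 on both arrays (3 as reported) came to 0 with median centring and 0 with spike-in scaling (8.89% and 0.323% of all genes), and members below 0 on both (6 as reported) to 25 and 30 (61.4% and 82.7% of all genes). On a single array, where the sign of 1 array alone counts, they were 15 to 15 above and 18 to 18 below. Cause was not tested. No paired analysis was possible because the 2 arrays form 1 group, with both RNAs on each array, and were counted as 1 replicate; any pooling of the mice is not given in the labels.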
